A study of Acomys cahirinus and Mus musculus with 6 samples.

Results

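The genes described here are the cytosolic ribosomal protein genes, taken as every symbol in the count table that matches Rpl or Rps followed by a digit, together with Rplp0, Rplp1, Rplp2 and Rpsa. Symbols that start with Rps6k, which are kinases, and symbols that hold "-ps" were left out. The rule found 108 of the 20381 genes in the table. They fell into 43 large subunit genes, 31 small subunit genes, 3 stalk genes, 8 paralogs or like genes and Rps19bp1, which encodes a nucleolar partner of Rps19 and is not itself a ribosomal protein. The other 22 were symbols with a digit added to a ribosomal gene's name, such as Rpl23a2 and Rps152. None of these 22 is in the GENCODE vM21 mouse annotation, and none had a unique molecular identifier (UMI) in any mouse cell. The sources do not say what they stand for, so they are called added-digit symbols.

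The study profiled single cells from healing ear punches of the ear pinna skin in spiny mice (Acomys cahirinus, wild-type) and laboratory mice (Mus musculus, strain CD1). The spiny mouse libraries came from animals given an ERK inhibitor, an ErbB2 inhibitor, an FGFR1/2/3 inhibitor or DMSO, injected from day 12 to day 15. The mouse libraries came from ears with beads soaked in FGF2/Nrg1 or in PBS, implanted at day 10. All 6 samples went through protease and Dounce dissociation, red cell lysis and droplet 3′ UMI counting, and the sources do not give the ages and numbers of animals.

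A cytosolic ribosome carries 1 copy of most of these proteins, bound to ribosomal RNA in a large subunit that forms peptide bonds and a small subunit that reads the messenger RNA. The acidic stalk proteins recruit the GTPases that drive translation. The mRNAs are short, abundant and often start with an oligopyrimidine tract, through which mTOR signalling sets their translation, and growth factor signalling through ERK and mTOR is known to raise ribosome production. In skin the basal keratinocytes and other dividing cells make new ribosomes, while maturing neutrophils make few.

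Each group was 1 library, so no difference below has a replicate check, no test was made between treatments and no p-value is given. Exact 95% intervals cover counting error only. The libraries are given throughout as ERK inhibitor, ErbB2 inhibitor, FGFR inhibitor and DMSO for spiny mouse, and FGF2/Nrg1 and PBS for mouse. They held 631, 10632, 4782, 15363, 5104 and 3065 cells in that order, and 7429819, 62542847, 33564162, 70058081, 30624949 and 22572569 UMIs. Between 8 and 122 barcodes of a library also occurred in another library. The ERK inhibitor library was the smallest and had the highest median depth, 6915 UMIs per cell against 3125 in DMSO. In 10x 3′ libraries a molecule gives 1 tag whatever its length, so levels in CPM (UMIs of a gene per 1000000 UMIs) are compared between genes with no division by length.

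Sequence first shows why some symbols have to be read together. Rps27 encodes a zinc finger protein of the small subunit, and its coding sequence of 255 bases is identical to that of Rps27rt, so reads within the coding sequence cannot tell these symbols apart. Rps27 lies at chr3:90212522-90213651 on the minus strand and Rps27rt at chr9:114982366-114982739 on the minus strand (GRCm38, GENCODE vM21, as for all positions given). Rpl36a and Rpl36al encode forms of one large subunit protein near the exit site for transfer RNA. Rpl41, at chr10:128548114-128549305 on the minus strand, has the shortest coding sequence of the genes with a vM21 coding transcript, 78 bases, shown with its start and stop codons in capitals because the symbol had no UMI in spiny mouse.
Rps27: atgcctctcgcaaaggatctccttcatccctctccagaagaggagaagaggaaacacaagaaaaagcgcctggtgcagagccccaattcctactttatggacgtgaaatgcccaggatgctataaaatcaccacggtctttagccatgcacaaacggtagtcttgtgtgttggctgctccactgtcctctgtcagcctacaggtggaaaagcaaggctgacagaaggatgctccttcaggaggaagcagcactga
Rpl41: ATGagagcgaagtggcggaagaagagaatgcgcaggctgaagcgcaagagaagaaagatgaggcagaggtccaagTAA

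Rpl36a and Rpl41 were the 2 symbols with no UMI in any spiny mouse cell. Rpl36a had 1194 CPM in the FGF2/Nrg1 library and 1387 CPM in the PBS library. Rpl41, a very short basic peptide at the interface of the subunits, had 3389 and 3413 CPM in the same libraries. A count of 0 allows up to 0.404, 0.0480, 0.0894 and 0.0428 CPM in the ERK inhibitor, ErbB2 inhibitor, FGFR inhibitor and DMSO libraries (3 UMIs of the total). The paralog Rpl36al was counted in all 4, at 3261, 3291, 3192 and 3373 CPM, and at 884 CPM in the FGF2/Nrg1 library and 955 CPM in the PBS library. Rps27 and Rps27rt also split by species. Rps27rt had 4644, 2799, 3383 and 2960 CPM in the 4 spiny mouse libraries and 62.7 and 67.1 CPM in the mouse ones. Rps27 had 5.38, 10.8, 8.43 and 9.25 CPM in spiny mouse and 1314 and 1674 CPM in mouse. Counts from the 2 species are set side by side without a ratio, because the sources do not say how spiny mouse reads were assigned to mouse symbols.

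At a level of 100 CPM the 108 symbols sorted into 4 patterns in the DMSO and PBS libraries. Both libraries reached it for 72 symbols, across which the levels correlated with a Spearman rho of 0.70 (Pearson r = 0.57 on log2 CPM; a description across genes that share libraries and are not replicates). Only PBS reached it for 8, namely Rpl23a, Rpl29, Rpl39, Rps15, Rps16, Rps27, Rpl36a and Rpl41, and only DMSO for 3, namely Rpl23a2, Rps152 and Rps27rt. Neither reached it for 25, of which 20 were added-digit symbols. Rpl23a, a large subunit protein beside the tunnel exit, had 9.69, 39.4, 42.7 and 45.8 CPM in the ERK inhibitor, ErbB2 inhibitor, FGFR inhibitor and DMSO libraries, where Rpl23a2 had 1046, 1624, 1598 and 1813 CPM. In mouse Rpl23a had 3194 CPM with FGF2/Nrg1 and 3422 CPM with PBS. Rps15, a small subunit protein near the decoding site, had 7.54, 19.7, 23.7 and 27.3 CPM in spiny mouse, where Rps152 had 1952, 2609, 2646 and 3339 CPM. Its mouse levels were 2601 and 2550 CPM. Thus for Rpl23a and Rps15 a low plain symbol went with a high added-digit symbol in spiny mouse and with none in mouse. Rps16, also of the small subunit, was at 28.5, 14.7, 17.7 and 20.1 CPM in spiny mouse and at 4049 and 4072 CPM in mouse. All 22 added-digit symbols together took 0.30%, 0.43%, 0.43% and 0.52% of spiny mouse UMIs.

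The set took 30.2%, 29.4%, 30.2% and 30.04% of all UMIs in the ERK inhibitor, ErbB2 inhibitor, FGFR inhibitor and DMSO libraries, and 22.95% and 23.34% in the FGF2/Nrg1 and PBS libraries. Of the 108 symbols, 93, 102, 99, 105, 85 and 85 had at least 1 UMI, in the same order. With stalk genes, paralogs and added-digit symbols left out, large and small subunit genes took 13.6% of UMIs each in DMSO. In PBS the same groups took 11.8% and 10.3%. Counted by whether a symbol starts with Rpl or Rps, the Rpl symbols led in both controls. They took 15.7% against 14.3% in DMSO and 13.03% against 10.3% in PBS. Among the most counted in DMSO were Rps27a, a fusion of ubiquitin and a small subunit protein, at 9873 CPM, Rps4x at 8448, Rpl18 at 7645 and Rpl13 at 7601 CPM. Among the most counted in PBS were Rpl13 at 6172 CPM, Rps20 at 5361, Rps24 at 5194 and Rps3a1 at 5043 CPM. The stalk gene Rplp0 (chr5:115559467-115563727) had 8591, 7143, 7471 and 7497 CPM in spiny mouse and 4174 and 4732 CPM in mouse. Its partners were lower in the controls, Rplp1 at 3906 CPM in DMSO and 3310 in PBS, and Rplp2 at 4137 and 2544. Rpsa, the small subunit protein also known as the laminin receptor, had 4476 CPM in DMSO and 3515 in PBS. Rps6, the S6 kinase substrate, had 2693 CPM in DMSO and 1872 in PBS.

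The paralogs ranged from abundant to near 0. Rpl22l1, which can take the place of Rpl22, had 918, 856, 895 and 934 CPM in spiny mouse and 560 and 512 CPM in mouse, beside Rpl22 at 1948, 1362, 1081, 1177, 1591 and 1704 CPM. Rps27l was at 478 to 557 CPM in spiny mouse and at 480 and 471 CPM in mouse. Rpl7l1, a biogenesis relative of Rpl7, was at 6.76 to 8.22 CPM in spiny mouse and at 73.3 and 71.9 CPM in mouse, against Rpl7 at 1946 to 3164 CPM over all libraries. Forms known for restricted tissues were near or at 0 in spiny mouse. Rpl3l, the striated muscle relative of Rpl3, did not pass 1.34 CPM in any library. Rpl10l, a testis retrogene of Rpl10, was counted in DMSO alone, at 0.17 CPM. Rpl39l, a testis-enriched relative of the tunnel protein Rpl39, had 16.1 CPM with FGF2/Nrg1 and 1.11 CPM with PBS, and at most 0.05 CPM in spiny mouse. Rpl39 itself had 109, 54.7, 45.8 and 56.5 CPM in spiny mouse and 2173 and 2498 CPM in mouse.

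Of the 86 members with a vM21 coding transcript, coding lengths ran from 78 to 1260 bases with a median of 456. For 79 of the 86, at least 1 other annotated mouse gene matched the coding sequence at 95% identity over 90% of its length. The median was 4.5 such genes and the most was 56, for Rpl21. Which of them took reads was not tested, so levels of single symbols carry that uncertainty. A start with C as its first base and only pyrimidines in its first 5 bases was taken as the letter pattern of an oligopyrimidine tract. At least 1 annotated coding transcript had it for 23 of 86 members (26.7%) and for 925 of 16743 other genes (5.52%). Mitochondrial ribosomal protein genes had it in 5 of 78 (6.41%). This describes annotated starts, which are not always the true ones.

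Among cell classes, basal keratinocytes of the interfollicular epidermis (IFE) had the highest share of UMIs in these genes in both control libraries. The share was 34.2% in DMSO and 28.2% in PBS, and counting intervals on class shares were at most about 0.3 percentage points to either side. In DMSO it was followed by hair germ and outer bulge cells at 32.8%, outer root sheath at 31.1%, T-cells at 30.9% and sebaceous cells at 30.4%. The low end held fibroblasts at 26.1%, cluster 7 at 25.9%, dermal sheath and papilla at 24.2% and inner root sheath at 22.7%. Mouse classes spread further, with suprabasal keratinocytes at 27.5%, T-cells at 24.2%, fibroblasts at 12.1%, dermal sheath and papilla at 9.24% and cluster 7 at 7.12% in PBS. IFE basal keratinocytes were thus high and dermal cells low in both species, and the dermal shares were further below the IFE basal ones in mouse. This does not hold for all keratinocytes, since the inner root sheath was below the dermal classes in DMSO. Cell types are the authors' deposited annotation. Clusters 6, 7 and 14 are given by number because their leading genes went against the annotated name or because the annotation calls them unknown. Interfollicular keratinocytes, pooled over basal, cycling basal and suprabasal cells, had UMIs for 7 of 7 basal and 8 of 8 suprabasal markers in every library. This pooled count does not check the basal and suprabasal classes one by one. In the same pooled cells the granular layer gene Lor had no UMI in any spiny mouse library.

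**Figure D1:**
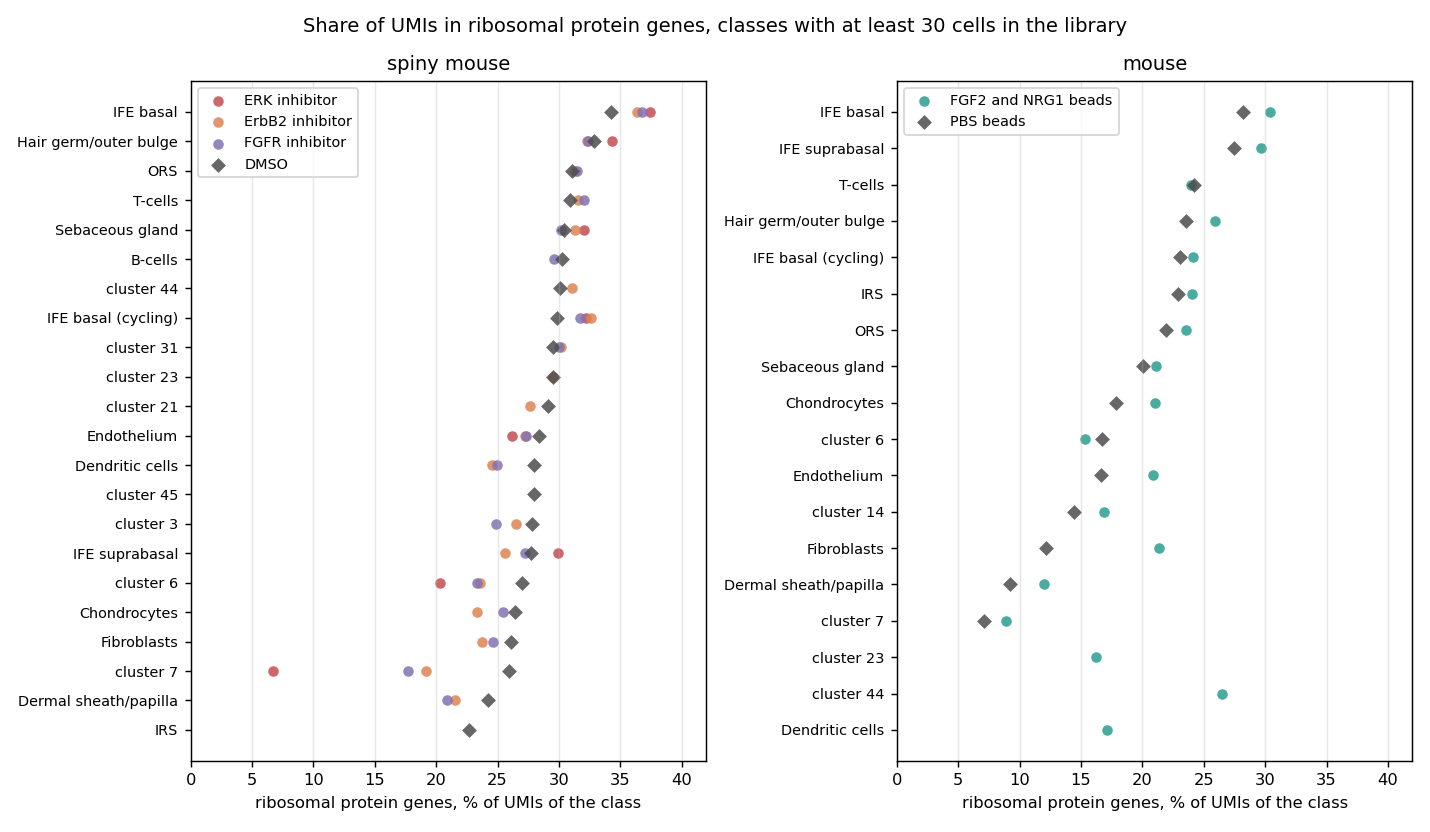
Percent of UMIs in the 108 ribosomal protein symbols (horizontal) for each cell class with at least 30 cells in the library, spiny mouse on the left and mouse on the right, 1 point per library with diamonds for DMSO and PBS. IFE basal cells lead both controls at 34.2% and 28.2%, and cluster 7 has the lowest point of the spiny mouse panel, 6.71% with the ERK inhibitor.

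Individual members were set against the summed level from type to type. They make up that level themselves, and no values for other genes are given beside theirs. Over 16 types of at least 100 cells in DMSO, the level of a member relative to the summed level moved by a median of 0.38 (log2, highest type minus lowest type) for the 75 members measured, and 1 passed 2-fold. Among those under 2-fold, Rpl22l1 had a range of 0.92 and was relatively highest in chondrocytes (1206 CPM) and relatively lowest in sebaceous cells (731 CPM). Rps29, Rpl36, Rpl31 and Rps6 followed with ranges of 0.68, 0.61, 0.59 and 0.58. In PBS, with 8 types and 79 members, the median range was 0.42 and 4 members passed 2-fold. Rps9 moved most there, with a range of 1.41, and stood 1.08 above the summed level in cluster 7 (1768 CPM) and 0.32 below it in cycling basal cells (2162 CPM). Rps29, Rps27l, Rps27, Rpl36al and Rpl10 followed at 1.09, 1.01, 1.01, 0.96 and 0.89. Rps29 was relatively highest in cluster 6 (3031 CPM), as was Rpl36al (1070.2 CPM), and Rps27l was relatively highest in sebaceous cells (646 CPM). Rps9 also led in the FGF2/Nrg1 library, standing 1.18 above the summed level in cluster 7.

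The ERK inhibitor comparison asks what a block of the kinase ERK, which acts downstream of growth factor receptors, did in healing spiny mouse skin. In interfollicular keratinocytes (278 cells against 7947 in DMSO) the set as a whole was nearly level, at 32.6% of UMIs with the inhibitor and 30.5% in DMSO. The median log2 ratio of the 89 members measured (at least 30 UMIs over both libraries) was 0.09, against 0.00 over all genes. At least 1.5-fold higher were 14 of 89 members, where 11.3% of all genes were, and 7 were at least 1.5-fold lower, where 12.5% of all genes were. Averaging each cell's own CPM gave 11 higher and 10 lower. Median depth was 15114 UMIs per keratinocyte with the inhibitor and 4371 in DMSO, and its part in the result was not tested. By group the median ratio was 0.14 for large subunit genes, 0.06 for small subunit genes, 0.33 for the 3 stalk genes and 0.03 for the 5 paralogs. The 8 added-digit symbols measured lay at −0.49.

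Rpl32, a large subunit gene at chr6:115805505-115808747, had the highest ratio, with 2092 CPM under the ERK inhibitor and 771 CPM in DMSO (log2 ratio 1.44, interval 1.41 to 1.47). Rps29, a small zinc-binding protein of the small subunit at chr12:69157722-69159186, had 429 against 168 CPM (1.35, 1.28 to 1.42). Rps28, which lies beside the exit path of the messenger RNA and maps to chr17:33819027-33824562, had 1070.2 against 445 CPM (1.27, 1.22 to 1.31). All 3 were among the 6 lowest members in DMSO that still passed 100 CPM, while their PBS levels in mouse were 4518, 2400 and 2180 CPM. Rpl31 had 255 against 126 CPM (1.02, 0.93 to 1.11). Rpl29, with 26 UMIs under the inhibitor, had a ratio of 1.08, and of 1.75 as a mean over cells. Rpl39 had 110.5 against 54.7 CPM (1.02, 0.88 to 1.15), a ratio that was 0.30 once every cell was thinned to 1000 UMIs. The low end was led by Rpl23a (chr11:78180932-78183584), with 10.3 against 45.5 CPM (−2.12, −2.59 to −1.74), and by Rps15 (chr10:80292453-80294114), with 6.07 against 27.1 CPM (−2.11, −2.74 to −1.63), from 49 and 29 UMIs under the inhibitor. Their added-digit partners were lower as well, Rpl23a2 at 1097 against 1794 CPM (−0.71) and Rps152 at 2091 against 3370 CPM (−0.69). Rps251 and Rpl212, the remaining 2 of the lowest, rested on 9 and 5 UMIs under the inhibitor, with ratios of −1.66 and −0.89, and Rps251 was at 0.11 after thinning. Abundant members differed among themselves. Rpl36al was at 3395 against 3317 CPM (0.03), Rps6 at 2267 against 2752 CPM (−0.28) and Rps27rt at 4902 against 2988 CPM (0.71).

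These ratios were not particular to keratinocytes. Rpl32 lay between 0.91 and 1.48 in each class compared other than cluster 7, where it was −0.70. Rps28 lay between 0.68 and 1.31, Rps29 between 0.59 and 1.39 and Rpl31 between 0.53 and 1.23 over the same classes. Rpl23a was below 0 in all of them, from −0.96 to −2.31, and at −2.92 in cluster 7. The shortest 27 members by coding length (up to 402 bases) had a median keratinocyte ratio of 0.38 and the longest 27 (at least 579 bases) one of 0.06, with a Spearman rho of −0.37 over 81 members (Pearson r = −0.22; a description). The same measure was −0.22 with the ErbB2 inhibitor (r = −0.26) and 0.20 with the FGFR inhibitor (r = 0.12), each over 81 members. With the FGF2/Nrg1 beads it was 0.45 over 83 members (r = 0.34). A positive rho was thus found with a block of FGFR as well as with added growth factors.

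With the ErbB2 inhibitor, which acts on the receptor partner for neuregulin signals, the set was level or slightly lower in interfollicular keratinocytes (4770 cells against 7947), at 29.4% of UMIs against 30.5% in DMSO. Markers of the layers moved with it, basal ones at 0.98% of UMIs with the inhibitor and 1.82% in DMSO, suprabasal ones at 11.7% and 8.14%, and granular ones at 0.36% and 0.12%, and their part was not tested. The median ratio was −0.09 over 92 members and −0.10 over all genes. None of the 92 was 1.5-fold higher, where 6.1% of all genes were, and 4 were 1.5-fold lower, where 13% of all genes were. Averaging each cell's own CPM gave 2 higher and 1 lower, and weighting clusters to the DMSO mix 2 higher and 2 lower. Rpl13a, a large subunit protein at chr7:45125558-45128761, was the one abundant gene among the 4, with 1754 CPM under the inhibitor and 2682 CPM in DMSO (−0.61, −0.63 to −0.60). Its ratio was −0.56 after thinning and −0.52 with clusters weighted to the DMSO mix, both under 1.5-fold. No member passed 1.5-fold after thinning. The others, Rpl212, Rpl7a3 and Rps151, were added-digit symbols at −0.63, −0.81 and −0.64, and Rpl7a3 and Rps151 are named after their values were seen. Rpl212 was at −0.01 once cells were thinned to 1000 UMIs. Rps15 and Rps16 were at −0.46 and −0.45 from low counts. Rpl271 was highest at 6.31 against 4.43 CPM (0.51, 0.23 to 0.79). Among members above 1000 CPM were Rpl37a at 4324 against 3652 (0.24) and Rps2 at 7943 against 7036 CPM (0.17). The direction of the summed share depended on the layer. IFE basal cells had 36.3% with the inhibitor and 34.2% in DMSO, and suprabasal cells 25.7% and 27.7%.

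With the FGFR1/2/3 inhibitor the set was level with DMSO in interfollicular keratinocytes, with 30.7% of UMIs against 30.5% (2381 cells against 7947). The median ratio was −0.02 over 92 members and −0.07 over all genes. Only Rpl271 passed 1.5-fold, on the higher side, where 4.54% of all genes did, at 7.34 against 4.43 CPM (0.73, 0.42 to 1.03), and no member was 1.5-fold lower, where 9.53% of all genes were. Rps9, a small subunit gene at chr7:3703993-3706897, led the abundant members with 6020.1 CPM under the inhibitor and 4719.6 CPM in DMSO (0.35, 0.34 to 0.36). On the lower side Rps152 had 2644 against 3370 CPM (−0.35), Rps2 had 5837 against 7036 CPM (−0.27) and Rps26 had 2689.6 against 3150.5 CPM (−0.23). Rpl39 at 43.98 against 54.67 CPM (−0.31) did not hold its sign when cells were thinned to 1000 UMIs (0.01). The 3 inhibitor ratios share the DMSO library as their denominator, so their values stand side by side and their likeness is not given as a result.

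In mouse the FGF2/Nrg1 beads supplied growth factors in place of a block. Interfollicular keratinocytes (976 cells against 1047) had 28.9% of UMIs in these genes with FGF2/Nrg1 and 27.0% with PBS. The median ratio was 0.08 over 83 members and −0.02 over all genes, and no member passed 1.5-fold either way, where 4.29% of all genes were higher and 3.93% lower. At a lower fold threshold, just above 0.32 on the log2 scale, 5 members were higher, where 10.6% of all genes were, and none was lower, where 11.4% were. Rps28 lay just inside it. These 5 were Rps9 with 3840.3 CPM with FGF2/Nrg1 and 2698 CPM with PBS (0.51, 0.49 to 0.53), the stalk gene Rplp1 at 5387 against 3988 CPM (0.43), Rps12 at 6199 against 4612 CPM (0.43), Rps25 at 2475 against 1855 CPM (0.42) and Rpl26 at 2255 against 1692 CPM (0.41). Rpl5, which binds the 5S ribosomal RNA, came sixth at 2512 against 2048 CPM (0.29). At the low end stood Rps28 at 2026 against 2530.3 CPM (−0.32), Rpl29 at 262 against 324 CPM (−0.30), Rpl37a (−0.27), Rpl38 (−0.26), Rpl35 (−0.23) and Rpl37 (−0.21). Rpl41 and Rpl36a, the genes without UMIs in spiny mouse, were at neither end.

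**Figure D2:**
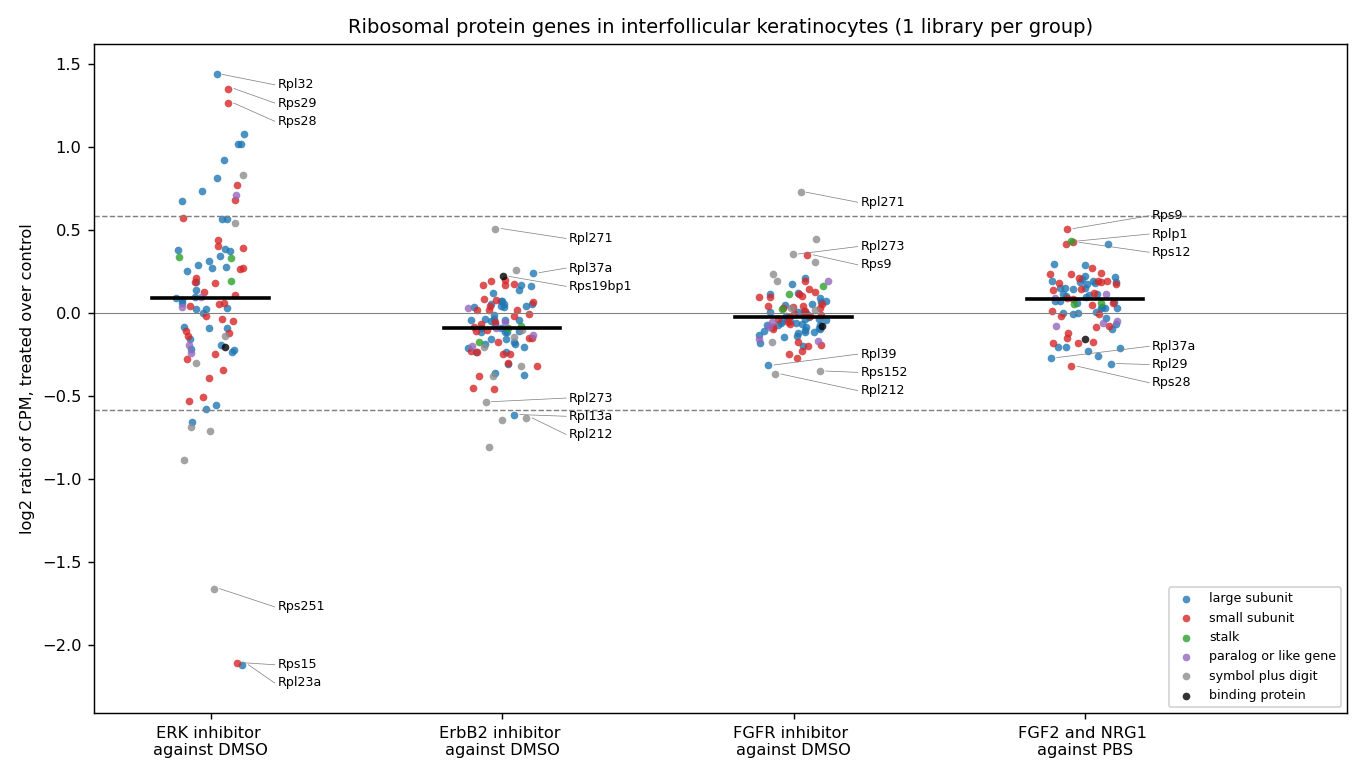
Log2 ratio of treated to control level in interfollicular keratinocytes for every member measured (vertical), 1 point per member and 1 column per comparison, coloured by group. Points spread from −2.12 to 1.44 with the ERK inhibitor and stay between −0.32 and 0.51 with FGF2/Nrg1.

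Among the mouse classes compared, the set differed most in fibroblasts. They had 21.4% of UMIs in these genes with FGF2/Nrg1 (219 cells, interval 21.32% to 21.43%) and 12.1% with PBS (80 cells, 12.01% to 12.20%). The median ratio was 0.82, against −0.18 over all genes. Of 84 members, 67 were at least 1.5-fold higher, where 13.5% of all genes were, and none was lower, where 27.5% of all genes were. Weighting the clusters to the PBS mix gave a median of 0.52 and 31 members higher. Fibroblast depth also differed, with a median of 8195 UMIs per cell against 4812.5. In cells with at least 5000 UMIs (151 against 38) the shares were 22.2% and 12.4%. Thinning cells to 1000 UMIs gave a median ratio of 0.66, and the part of depth was not tested.

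The annotation splits fibroblasts into clusters 32 and 34, and the shift lay in cluster 32 (153 cells against 32). There the share was 22.5% with FGF2/Nrg1 and 11.1% with PBS, and the median cell had 22.9% (quartiles 18.8% and 24.9%) against 10.2% (7.79% and 15.01%). The median ratio was 1.02, and 77 of 84 members were at least 1.5-fold higher, where 17.8% of all genes were, and none lower, where 29.1% were. The groups were alike, with 41 of 43 large subunit genes, 27 of 31 small subunit genes, 3 of 3 stalk genes and 6 of 6 paralogs higher. The genes named for this cluster were chosen after their values were seen. Rpl10a, the protein of the L1 stalk (chr17:28328471-28331033), had 3221 CPM with FGF2/Nrg1 and 1097 CPM with PBS (1.55, 1.36 to 1.75). Rps12 (chr10:23785183-23787275) had 5397 against 1964 CPM (1.46), Rpl7a 1417 against 527 CPM (1.41) and Rps6 1993 against 771 CPM (1.36, 1.14 to 1.61). Rpsa had 4087 against 1868 CPM (1.13), Rpl41 4564 against 2102 CPM (1.12) and Rplp0 3178.5 against 1652 CPM (0.94). Rpl39l had 57.4 against 9.58 CPM, from 109 against 2 UMIs, which leaves its ratio between 0.70 and 5.65. At the low end Rps27 had 959.6 against 819 CPM (0.22, 0.00 to 0.46) and Rps28 1353 against 1125 CPM (0.26). All 8 fibroblast markers had UMIs in both libraries, at 1.62% of cluster 32 UMIs with FGF2/Nrg1 and 6.98% with PBS, and the part of this difference in the result was not tested.

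Cluster 34 (66 cells against 48) did not share the shift, with 13.3% of UMIs with FGF2/Nrg1 and 12.9% with PBS and a median ratio of 0.03. None of 81 members was 1.5-fold higher, where 10.3% of all genes were, and 2 were lower, where 8.39% were, namely Rps28 (−0.62) and Rpl7l1 (−0.80, from 18 against 31 UMIs). In this cluster Rps6 was at 0.13, Rpl10a at 0.30 and Rplp1 at 0.42. Schwann cell markers were 0.31% of its UMIs with FGF2/Nrg1 and 0.53% with PBS, against 0.008% and 0.004% in cluster 32, and the fibroblast gene Pdgfra was at 0 in its PBS cells. Cluster 32 made up 153 of the 219 fibroblasts with FGF2/Nrg1 and 32 of the 80 with PBS, so the pooled fibroblast values mix these clusters differently.

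**Figure D3:**
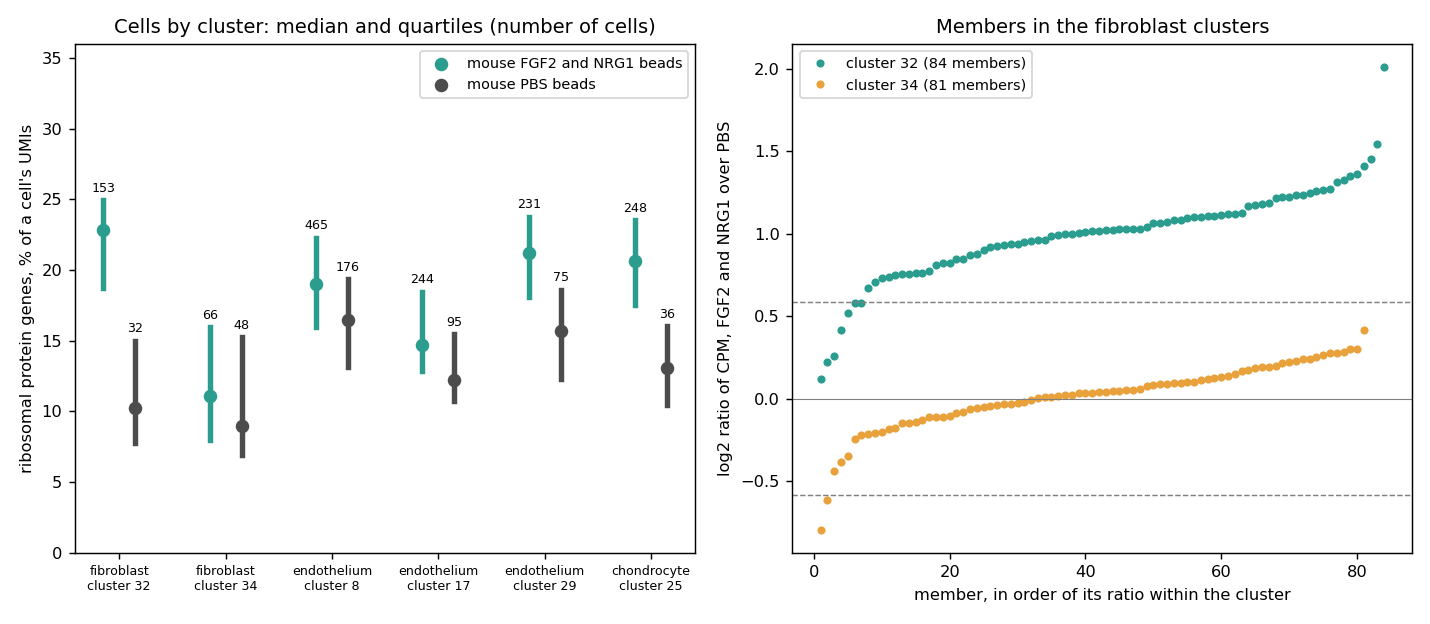
Left, percent of a cell's UMIs in ribosomal protein genes by mouse cluster and library, as the median (point) and quartiles (bar) over cells, with the number of cells above; right, log2 ratio of CPM with FGF2/Nrg1 to PBS for each member measured in fibroblast clusters 32 and 34, ordered by size, with dashed lines at 1.5-fold. The median cell of cluster 32 has 22.9% with FGF2/Nrg1 and 10.2% with PBS, and 77 of its 84 members lie above the upper line, against 0 of 81 in cluster 34.

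Most other mouse classes had slightly higher shares with FGF2/Nrg1. Endothelium (940 cells against 346) had 20.9% with FGF2/Nrg1 and 16.7% with PBS, with a median ratio of 0.31. Its 3 clusters each had the higher share with FGF2/Nrg1, at 21.1% against 17.6%, 17.1% against 13.3% and 21.7% against 17.1%. In endothelium Rpsa had 3147 against 1978 CPM (0.67) and Rps9 3129 against 2009 CPM (0.64), both named after their values were seen. Chondrocytes had 21.03% against 17.84%, and dermal sheath and papilla 11.96% against 9.24%. T-cells had 23.99% against 24.18%, with a median ratio of 0.00, and cluster 6 had 15.4% against 16.7%, with a median ratio of −0.12.

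In spiny mouse the dermal classes of the inhibitor libraries lay slightly below DMSO. Fibroblasts had 23.8% with the ErbB2 inhibitor (274 cells), 24.6% with the FGFR inhibitor (97 cells) and 26.1% in DMSO (297 cells), with median ratios of −0.19 and −0.09. Cluster 32 within them had 23.1%, 23.2% and 25.4% in the same order. Dermal sheath and papilla had 21.5%, 20.9% and 24.2%. The ERK inhibitor library held 9 fibroblasts and gave no comparison there. Keratinocyte markers in fibroblasts were 2.00%, 1.85% and 3.41% of UMIs with the ErbB2 inhibitor, with the FGFR inhibitor and in DMSO, and their part was not tested. T-cells differed the other way, at 31.5% with the ErbB2 inhibitor, 32.04% with the FGFR inhibitor and 30.9% in DMSO.

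Among classes with at least 30 cells, the lowest shares of the series were in cluster 7, which the annotation calls circulating monocytes and whose leading genes include neutrophil markers. With the ERK inhibitor it had 6.71% of UMIs in these genes (55 cells, 6.62% to 6.80%), with the ErbB2 inhibitor 19.2% (103 cells), with the FGFR inhibitor 17.7% (89 cells) and in DMSO 25.9% (227 cells, 25.8% to 26.1%). In mouse it had 8.91% with FGF2/Nrg1 (611 cells) and 7.12% with PBS (307 cells). The ERK inhibitor value thus lay below both mouse values, and the other spiny mouse values lay above them. Composition moved with these shares and its part was not tested. Neutrophil markers were 28.3%, 5.76%, 5.85% and 3.14% of UMIs in the ERK inhibitor, ErbB2 inhibitor, FGFR inhibitor and DMSO cells, with 6 of 8 markers counted and Retnlg and Ly6g at 0. Keratinocyte markers were 0.16%, 5.13%, 3.12% and 5.48%. Median depth was 5167, 1125, 1119 and 1192 UMIs.

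Member by member, 74 of 77 in cluster 7 were at least 1.5-fold lower with the ERK inhibitor, where 44.9% of all genes were, and 1 was higher, where 25.7% were. The median ratio was −2.06, against −0.39 over all genes. Genes for this cluster were named after their values were seen. Rpl4 (chr9:64173375-64178666), one of the longest large subunit proteins, had 86.05 CPM with the inhibitor and 1461 CPM in DMSO (−4.03, −4.74 to −3.49). Rpl3, which lies near the peptidyl transferase centre, had 176 against 2471 CPM (−3.79), and Rps6 had 172 against 1782 CPM (−3.35). Rplp0 had 1273 against 6146 CPM (−2.27). Rpl39 was level at −0.04, and Rps19bp1, the partner protein, was the one member higher (0.78, 0.01 to 1.61). With the ErbB2 inhibitor 28 of 76 members were lower, where 16.3% of all genes were, and 1 higher, where 17.7% were, with a median of −0.47. With the FGFR inhibitor 40 of 76 were lower, where 21.7% of all genes were, and 1 higher, where 24.8% were, with a median of −0.62. FGF2/Nrg1 gave 6 higher, where 15.2% of all genes were, and 1 lower, where 8.86% were, among 83 members in mouse, with a median of 0.33.

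Cluster 6, annotated as resident macrophages, was lower with the ERK inhibitor as well, at 20.3% of UMIs (33 cells) against 27.0% in DMSO (410 cells). Of 80 members 26 were lower, where 21.1% of all genes were, and 9 higher, where 24.9% were, with a median of −0.36. Endothelium of the same library lay at a median of −0.12 (44 cells), while the 5 epithelial classes lay between 0.01 and 0.13. Keratinocyte markers in cluster 6 were 0.0801% of UMIs with the ERK inhibitor and 3.61% in DMSO, and in cluster 6 too their part was not tested. The pooled keratinocyte median was −0.03 as a mean over cells, so its side of 0 depended on the summary.

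**Figure D4:**
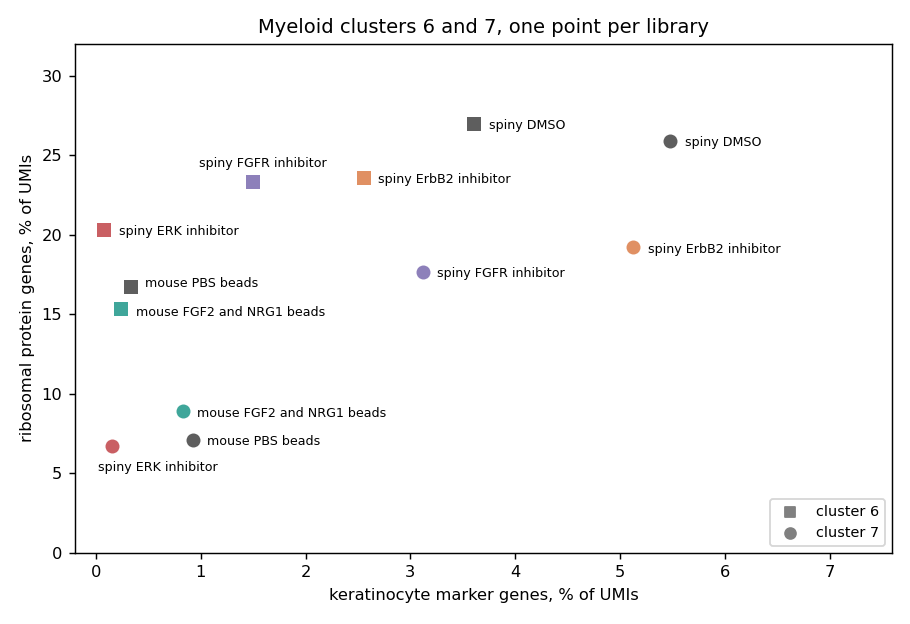
Percent of UMIs in ribosomal protein genes (vertical) and in keratinocyte marker genes (horizontal) in cluster 6 (squares) and cluster 7 (circles), 1 point per library. In cluster 7 the ERK inhibitor library has 6.71% and 0.16% and the DMSO library 25.9% and 5.48%, so both measures are low together and high together.

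Ribosomal proteins outside the naming rule gave a check on the rule. Fau, a fusion of a ubiquitin-like protein and a small subunit protein, had 4123, 4308, 3928 and 3803 CPM in spiny mouse and 4424 and 4245 CPM in mouse. Rack1, a signalling scaffold on the small subunit, had 2491, 2344, 3362 and 3415 CPM in spiny mouse. In keratinocytes Rack1 was at 2379 CPM with the ErbB2 inhibitor and 3504 CPM in DMSO (−0.56), close to the ratio of Rpl13a.

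Lists of other translation genes were summarised in the same way. In ERK inhibitor keratinocytes, where 11.3% of all genes were higher and 12.5% lower, 21 of 22 further oligopyrimidine mRNAs were measured, with a median of 0.06 and 2 higher by 1.5-fold, the elongation factors Eef2 at 2567 against 1587 CPM (0.69) and Eef1a1 at 6211 against 4049 CPM (0.62). Ribosome biogenesis factors had a median of −0.14 over 56 genes, with 2 higher and 4 lower, among them the nucleolar protein Lyar (−0.83) and the pseudouridine synthase Dkc1 (−0.75). The 76 mitochondrial ribosomal protein genes measured had a median of −0.13 with 4 higher, led by Mrpl14 (1.08). In each of these lists the share past the threshold was below that of all genes in both directions. With the ErbB2 inhibitor 4 biogenesis factors were lower, Dkc1 (−0.68), Imp3 (−0.66), Ncl (−0.62) and Nop56 (−0.61), and none higher, a smaller share of the 56 than the 13% of all genes that were lower, and with the FGFR inhibitor none passed. With FGF2/Nrg1 no biogenesis factor passed in keratinocytes, and the list's median was 0.03. Initiation factors and mTOR pathway genes had medians from −0.17 to 0.04 in the 4 keratinocyte comparisons.

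In fibroblast cluster 32, where 17.8% of all genes were higher with FGF2/Nrg1, 29.1% were lower and the median of all genes was −0.15, the further oligopyrimidine genes had a median of 0.87 with 19 of 22 higher. Biogenesis factors were at 0.41 with 19 of 50 higher, mitochondrial ribosomal proteins at 0.45 with 27 of 75 higher and 3 lower. Initiation factors, at 0.27 with 5 of 28 higher and 1 lower, and mTOR pathway genes, at 0.22 with 2 of 12 higher, had a share of higher genes near that of all genes. In cluster 7 with the ERK inhibitor, 44.9% of all genes were lower and the median of all genes was −0.39. The UMI minimum over both libraries was reached there by 20 of 22 further oligopyrimidine genes and 12 of 56 biogenesis factors. It was also reached by 14 of 28 initiation factors, 34 of 78 mitochondrial ribosomal protein genes and 4 of 19 mTOR pathway genes. Of those measured, 18 of 20 further oligopyrimidine genes were lower (median −1.94), as were 12 of 12 biogenesis factors (−2.89). So were 12 of 14 initiation factors (−1.38) and 24 of 34 mitochondrial ribosomal protein genes (−1.42). Of the 4 mTOR pathway genes measured, 2 were higher and 2 lower, with a median of 0.22. A sparse gene with a low ratio reached the minimum mainly through its DMSO UMIs, so these counts do not describe the unmeasured genes.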

How the data were processed

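Single-cell RNA of 6 libraries (4 spiny mouse, 2 mouse) was analysed from the authors' deposited UMI counts per gene and cell, with no normalization. Per the submitters' processing notes, Cell Ranger 6.1.1 and the builds GRCm38 and mm10 were used; how spiny mouse reads were assigned is not given in the sources used here. Clusters and cell types were those of the cell table as deposited by the authors, which also held a percent of counts in ribosomal genes, recomputed as a check. Cells were kept as deposited and no doublet caller was run. Clusters whose leading genes went against their name are given by number.

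UMIs were summed per library and class and scaled to CPM. Log2 ratios used a pseudocount of 1 UMI, with exact 95% conditional binomial intervals; shares have exact (Clopper-Pearson) 95% intervals. A member was measured at 30 UMIs or more over both libraries, classes needed 30 cells in both, and a fold of 1.5 (0.58 on the log2 scale) was the threshold. This procedure was run on simulated counts with set ratios that held counting error alone. They had no spread between cells, animals or libraries, so that run could not check how such spread bears on the ratios. With 1 library per group there was no test. Interfollicular keratinocytes are IFE basal, cycling basal and suprabasal cells together, without clusters 21, 31 and 44. Named genes were members without spiny mouse UMIs, the 5 most counted in DMSO and in PBS, the stalk genes, Rpsa and Rps6, paralogs with their parents, the 6 highest and 6 lowest keratinocyte ratios per comparison among members with at least 100 UMIs, the 6 departing most across types, and up to 4 per other list. Of the 5 least counted, Rpl36a, Rpl41 and Rpl39l had none in DMSO, and Rpl3l and Rpl210 at most 0.03 CPM; in PBS 23 members tied at 0, the added-digit symbols and Rpl10l. Coding sequences came from GENCODE vM21 and were compared with BLAST 2.17.0. Python 3.11.15, numpy 2.4.6, scipy 1.17.1, pandas 2.3.3 and matplotlib 3.10.9 were used. The members and lists were chosen with earlier results of these data known, and lists in clusters 7 and 32 were added after values were seen. Some results that this rule covers are not reported here.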

Additional observations from a re-analysis of the deposited data

Results flagged for a closer look

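The median ratio of the ribosomal protein genes in cluster 7 was −2.06 (log2) with the ERK inhibitor against DMSO, over 77 members measured in 55 cells against 227. It drew attention because interfollicular keratinocytes of the same libraries lay on the other side of 0, with a median of 0.09 over 89 members in 278 cells against 7947. That keratinocyte median was −0.03 as a mean over cells, so the opposite sign is lost under that summary. The difference between these classes was not tested, since each treatment was 1 library. Neutrophil markers were 28.3% of cluster 7 UMIs with the ERK inhibitor and 3.14% in DMSO, and keratinocyte markers were 0.16% and 5.48%. Their part in the difference was not tested.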

How the results depend on the processing

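No paired analysis was possible because each group was 1 library. Ratios were recomputed with no pseudocount, as means over cells, thinned to 1000 UMIs per cell, weighted to the control's cluster mix, scaled to the UMIs of other genes, with 300 UMIs as the minimum, with all clusters of a type name and at a lower threshold (log2 ratio of 0.32). Alternatives for fibroblast clusters, cells of at least 5000 UMIs and the deepest cell left out were chosen after seeing the data. In keratinocytes the ERK inhibitor median was −0.03 as a mean over cells, and the ErbB2 and FGFR inhibitor medians −0.02 and 0.03 with the cluster mix. The FGF2/Nrg1 median was 0.12 scaled to other genes. Members past the lower threshold numbered 40 of 89 with the ERK inhibitor (27 higher and 13 lower, where 23.3% and 23.2% of all genes were), 12 of 92 with the ErbB2 inhibitor (1 and 11, against 13.9% and 26.8%), 6 of 92 with the FGFR inhibitor (4 and 2, against 12% and 20.5%) and 5 of 83 with FGF2/Nrg1. Members past 1.5-fold with the ErbB2 inhibitor were 0 after thinning and 1 at 300 UMIs, and with the FGFR inhibitor 3 as a mean over cells and 2 with the cluster mix. The fibroblast median of 0.82 was 0.62 as a mean over cells, 0.66 thinned, 0.52 with the cluster mix (31 members), 0.98 scaled to other genes, 1.02 in cluster 32 and 0.03 in cluster 34 (2 members). Rps251 turned to 0.11 after thinning with the ERK inhibitor, and near 0 Rps27 turned to −0.08 with the ErbB2 inhibitor and Rpl39 to 0.01 with the FGFR inhibitor; the cause was not tested. Scaling to other genes moved the median of all genes by 0.16 in fibroblasts and by −0.33, −0.13 and −0.15 in cluster 7 with the ERK, ErbB2 and FGFR inhibitors, where the member medians were then −2.39, −0.59 and −0.77. Thinning left out 12 cells of the ERK inhibitor library and 74 of DMSO among keratinocytes. Among values of named members under the alternatives, 284 stayed within their counting interval, while 92 were classed as moved and 1 as reversed. Among the main results under the alternatives, 36 medians were classed as the same and 10 as moved. For counts of members in the main results, 41 were classed as the same and 10 as moved. Depth limits symbols of a few UMIs, such as Rps251, Rpl212 and Rpl39l.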

Other observations

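The deposited cell table holds a percent of counts in ribosomal genes. Recomputed from the counts, it matched the share of the 74 symbols that start with Rpl, to within 1e-06 percentage points in all 39577 cells, so small subunit genes are not in it. Its median per cell was 15.5%, 15.2%, 15.7% and 15.8% in the ERK inhibitor, ErbB2 inhibitor, FGFR inhibitor and DMSO libraries, where the 108 symbols had 28.3%, 28.9%, 29.87% and 29.95%. In mouse it was 10.49% with FGF2/Nrg1 and 9.85% with PBS, where the 108 symbols had 18.7% and 17.6%.

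The ratio of large to small subunit UMIs, with every symbol counted by whether it starts with Rpl or Rps, was 1.14, 1.08, 1.08 and 1.10 in the spiny mouse libraries in the same order, and 1.26 with FGF2/Nrg1 and 1.26 with PBS. Within a species the libraries thus differed by at most a few hundredths, and the spiny mouse values were lower than the mouse ones by more than that. How far this follows from symbols such as Rpl41 and Rpl36a, which had no UMI in spiny mouse, was not tested.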
